A study of Mus musculus with 3 samples.

Results

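The cadherin superfamily was examined in the developing mouse ureter, the muscular tube, lined by urothelium, through which the kidney drains into the bladder. Members were chosen by name and not by level: genes with a probe set of their own whose symbol marks a numbered cadherin (Cdh, without the endothelial Cdh5), a numbered non-clustered protocadherin (Pcdh), a beta protocadherin (Pcdhb), or a Celsr, Fat or Dachsous (Dchs) cadherin. This gave 61 of 18194 named genes, represented by 106 probe sets. The data are 3 samples of 1 group, called replicates 3, 8 and 9, of ureters from wild-type FVB/N embryos at embryonic day 15 (Theiler stage 23), of unknown sex and untreated as far as the labels say. RNA of each sample went through 2 rounds of amplification and onto its own Affymetrix whole-genome mouse array, which has 1 colour. The series holds no second group, so the values describe which members gave signal in this tissue and how far the samples differed, and no test was made. Samples were not pooled, per the labels, which name no embryo or litter of origin; the spread may therefore be partly technical.

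Cadherins are membrane proteins that hold cells together through calcium-dependent extracellular repeats. Classical cadherins link to the actin skeleton through catenins, and type I and type II classical cadherins sort cells of different tissues from each other. Protocadherins lack the catenin-binding tail and mostly act in recognition and signalling between cells, whereas the very large Fat, Dachsous and Celsr cadherins orient cells within a plane and control growth.

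A gene was called above background when its signal exceeded, on each of the 3 arrays, the 95th percentile of 54 measured genes that mark organs away from the ureter, such as retina, testis and lens. Replicates 3, 8 and 9 had limits of 395, 379 and 503 signal units. Some reference genes exceeded these limits: Cela1 of the exocrine pancreas on all 3 arrays, the cerebellum genes Cbln1 and Grm4 on 2 each, and Cpa1 and Iyd on 1 each. Probes bind their targets with unequal strength, so signals of different genes are not ranked. Across named genes outside the reference list, 53.8% were above background on all arrays. Among the 61 members, 18 (29.5%) were, a further 12 were above it on 1 or 2 arrays, and 31 on none. For comparison, 9.48% of named genes were above it on 1 or 2 arrays. Because the tissue is a mixture, fewer cells of a type and less RNA per cell cannot be told apart in these values.

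The labelled tissue was checked by marker lists. All 9 epithelial genes measured were above background, including Krt8 and Epcam, as were 9 of 10 genes of ureteric mesenchyme and fibroblasts, among them Tbx18 (11783 ± 7187, SD, n = 3; every ± below has this meaning), with Sox9 the exception. In the smooth muscle list, 4 of 8 were above background (Acta2, Mylk, Actg2 and Tagln). Genes of other tissues were present too: 7 of 7 hepatocyte genes, 7 of 8 skeletal muscle genes, 6 of 8 endothelial genes, 6 of 7 neuronal genes, 6 of 8 macrophage genes and 2 of 5 Schwann cell precursor genes were above background, against 0 of 7 nephron tubule and podocyte genes. Agreement between samples across the genes above background, which are not independent replicates, ranged from a Pearson's r of 0.934 (replicates 3 and 9) to 0.946 (replicates 3 and 8).

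The delta-2 protocadherins are the class with the largest share of members above background, 3 of 5. This is 60%, beside 53.8% of all named genes, and rests on 5 genes. The call of Pcdh8 came from a probe set that may cross-hybridise, and was lost when such probe sets were dropped, which left 2 of 5. A limit at the 99th percentile also gave 2 of 5, and one at the 90th gave 4. RefSeq (assembly GRCm38.p6) promoter sequences were at hand for all 5, so their start regions are shown first. For each, the 120 bases before the gene's start are printed 5′ to 3′ on the gene's strand, and capitals mark ATTGG, the reverse complement of the CCAAT box, a common promoter element bound by the NF-Y complex.
Pcdh8 (chr14:79771313-79771432, minus strand): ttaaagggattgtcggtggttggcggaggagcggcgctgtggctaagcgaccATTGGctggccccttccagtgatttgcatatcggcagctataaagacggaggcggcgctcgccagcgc
Pcdh10 (chr3:45378278-45378397, plus strand): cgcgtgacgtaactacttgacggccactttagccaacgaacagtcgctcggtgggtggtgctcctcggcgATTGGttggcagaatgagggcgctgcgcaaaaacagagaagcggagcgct
Pcdh17 (chr14:84443443-84443562, plus strand): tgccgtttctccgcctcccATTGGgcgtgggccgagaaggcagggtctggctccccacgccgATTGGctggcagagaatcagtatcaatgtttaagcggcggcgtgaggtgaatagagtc
Pcdh18 (chr3:49757317-49757436, minus strand): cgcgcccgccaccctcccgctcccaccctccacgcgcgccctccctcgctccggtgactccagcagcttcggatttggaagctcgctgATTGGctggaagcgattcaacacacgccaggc
Pcdh19 (chrX:133688994-133689113, minus strand): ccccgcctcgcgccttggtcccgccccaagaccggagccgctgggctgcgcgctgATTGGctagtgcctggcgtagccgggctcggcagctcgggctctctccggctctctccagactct

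All 5 windows held the box in this orientation, its first base lying 68 bases before the start in Pcdh8, 50 in Pcdh10, 32 in Pcdh18 and 65 in Pcdh19, and at 101 and again at 58 in Pcdh17. Searched on both strands, CCAAT was found in 21.3% of all 32851 promoter windows of 120 bases in the RefSeq table. Over 250 bases before the start, 8 of 9 non-clustered protocadherins with a window held it (Pcdh7 was without), against 33.8% of all windows, 6 of 11 Cdh genes and 0 of 6 Celsr and Fat genes. The longer string ATTGGNTNG, read from these 5 windows after they had been seen and including the box, was in 5 of 5 delta-2 windows of 120 bases and in 2.34% of all windows. In all, 6 of 26 member genes held it, the other being Cdh18, a type II cadherin below background. The box was in the 120-base window of 4 of 8 members above background and of 8 of 18 others. Of the 61 members, 26 had a window in the table, and matches are descriptions of letters, not of binding. The other strings searched over 250 bases were GGGCGG (9 of 26 members, 32.7% of all windows), TATAAA (2 of 26, 12.4%), the E-box CACCTG (4 of 26, 17.2%) and GTTAAT (3 of 26, 6.43%). Members were counted by gene, whereas the shares of all windows count windows. Of the 29 member windows of 250 bases, 51.7% held CCAAT, 31.0% GGGCGG, 6.90% TATAAA, 17.2% CACCTG and 10.3% GTTAAT.

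Within this class, Pcdh19, a homophilic adhesion protein of the nervous system linked to epilepsy in humans, had signals of 2343, 2743 and 2506 in replicates 3, 8 and 9. It was among the steadiest members, with a range of 0.23 on the log2 scale. Pcdh18 gave 1962, 2716 and 2889. Paraxial protocadherin, Pcdh8, which acts in cell movements and somite formation, gave 593, 2819 and 2693. Its replicate 3 value lay below the other two by more than those differed from each other. Pcdh17 gave 360, 821 and 1422, so it fell below background in replicate 3 alone, although its second probe set (467, 616 and 1142) was above background on every array. Pcdh10 gave 63.8, 62.8 and 321 and was below background on all arrays with the probe set used, and of its other 5 probe sets 1 (8.08, 207 and 517) exceeded the limit in replicate 9.

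**Figure D1:**
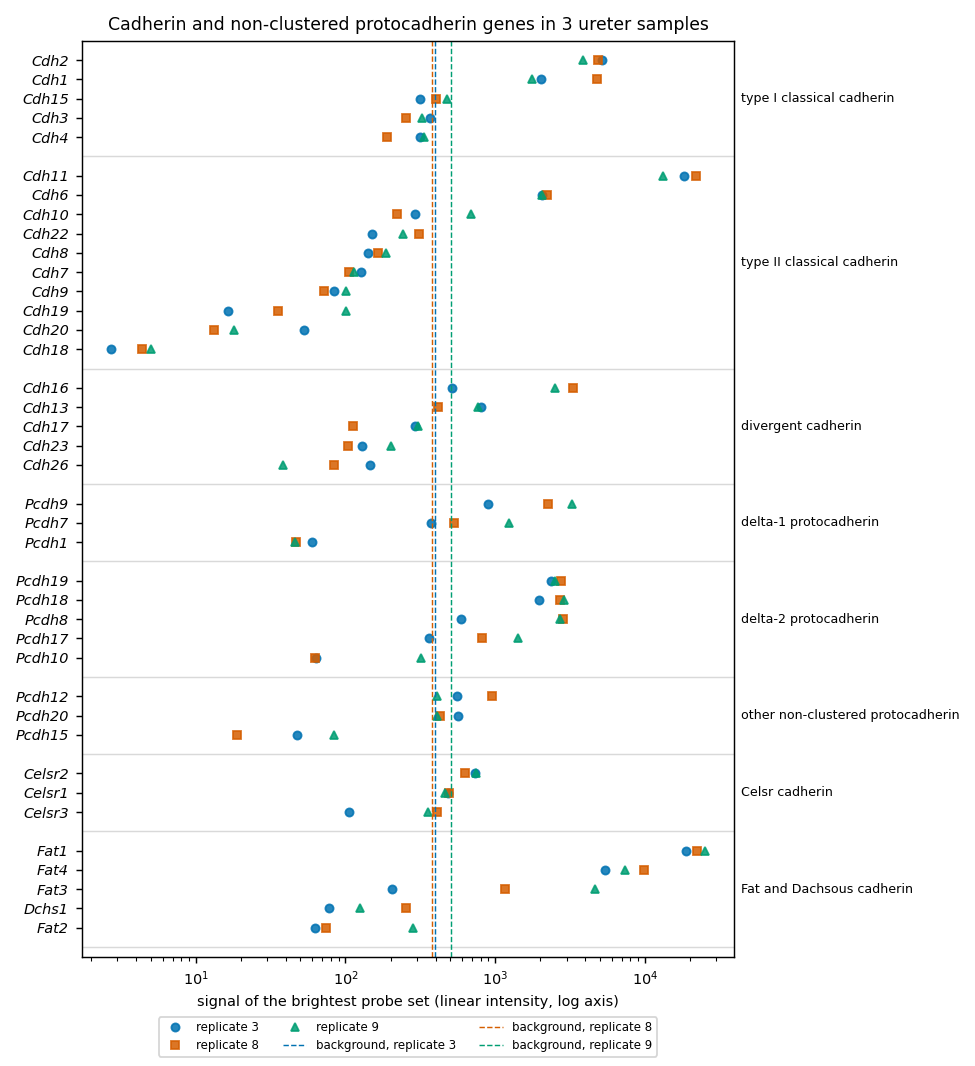
Signal (linear intensity on a log axis) of the 39 members outside the beta cluster, by class, in replicates 3 (circles), 8 (squares) and 9 (triangles), with the background limit of each array as a dashed line. Fat1, Cdh11 and Fat4 lie far to the right of the limits in every sample, whereas Pcdh8, Pcdh17, Cdh16 and Fat3 have their replicate 3 circle well to the left of the other samples.

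Type I cadherins above background were Cdh1 and Cdh2, 2 of 5. E-cadherin, Cdh1, the adhesion molecule of epithelia, gave 2029, 4767 and 1759. Replicate 8 was the high sample and the remaining pair lay close together. N-cadherin, Cdh2, found in neural and mesenchymal cells, gave 5172, 4838 and 3856, and its second probe set (2196, 2478 and 2882) was also above background, with the opposite order of samples. P-cadherin, Cdh3, the gene next to Cdh1 in the RefSeq table, was below background on every array at 366, 255 and 327, and its other probe set was too. R-cadherin, Cdh4, gave 312, 188 and 336. M-cadherin, Cdh15, which acts in skeletal muscle precursors, gave 316, 400 and 476 and exceeded the limit in replicate 8 alone. In the same samples 7 of 8 skeletal muscle markers were above background, with summed signals from 61433 to 73662, and the myogenic gene Myog was at 8273 ± 2289; their part in the Cdh15 signal was not tested.

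The type II cadherins gave signal through 2 of 10 members. Cdh11, the cadherin of mesenchyme and forming bone, gave 18359, 22032 and 13297, and both of its probe sets were above background in every sample. Cdh6, K-cadherin, known from the early nephron and other embryonic tissues, gave 2064, 2207 and 2062. Its range of 0.10 was the smallest among the 18 members above background, but its other probe set was below background (143, 155 and 188). Their neighbours among the members, in the RefSeq table, were below background on every array. Cdh8, next to Cdh11, had 164 ± 22.9, and Cdh9, next to Cdh6, had 85.8 ± 14.8. Cdh5, on the other side of Cdh11 and left out by the rule, was above background on every array (2930, 2358 and 1538). Cdh10, which follows Cdh9, was above background in replicate 9 alone (293, 220 and 686). The remaining type II members were below background on every array. Cdh22 had 234 ± 80.1 and Cdh7 115 ± 11.3. Cdh19, a cadherin of Schwann cell precursors, had 50.7 ± 44.1. Of the 5 Schwann cell precursor genes measured, Erbb3 and Fabp7 were above background on all 3 arrays, S100b on 2, Sox10 on 1 and Foxd3 on 0. Cdh20 (27.9 ± 21.6) and Cdh18 (4.04 ± 1.17) were far below background.

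Among the divergent cadherins 2 of 5 were above background. Ksp-cadherin, Cdh16, an epithelial cadherin of kidney tubules and of the duct system they join, gave 513, 3305 and 2496. The nephron tubule and podocyte markers were below background in all 3 samples, with summed signals of 7 genes from 586 to 867, and Umod and Slc12a1 at 80.5 ± 42.9 and 94.9 ± 38.9. T-cadherin, Cdh13, which is anchored by a lipid and has no tail inside the cell, gave 804, 412 and 763, from 1 of its 4 probe sets. It was the low value in replicate 8 that lay near the limit of that array. Cdh17, named liver-intestine cadherin (236 ± 107), Cdh23 of the hair cell tip link (145 ± 50) and Cdh26 (89.1 ± 53.7) were below background on every array.

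The delta-1 protocadherins were above background through Pcdh9, 1 of 3. Pcdh9 gave 889, 2250 and 3285, and 2 of its 3 probe sets were above background. The second of these gave 400, 398 and 1228, so replicates 3 and 8 were alike. The third, below background on every array, was highest in replicate 3. Pcdh7 gave 370, 532 and 1242 and fell just short of the limit in replicate 3, so without that sample 2 of 3 were above background. Pcdh1 stayed low at 51 ± 7.77. Of the other non-clustered protocadherins, Pcdh12, an endothelial protocadherin, gave 558, 948 and 411. It fell below the limit in replicate 9, the array with the highest limit (503). In that sample 7 of 8 endothelial markers were lowest (summed signals of 14274, 12477 and 10367 in replicates 3, 8 and 9). Pcdh12 was highest in replicate 8, whereas 6 of 8 of these markers were highest in replicate 3. The part of endothelial RNA in the Pcdh12 values was not tested. Pcdh20 gave 560, 429 and 406 and was above background on 2 arrays. Without replicate 9 both Pcdh12 and Pcdh20 met the call. Pcdh15, the tip-link partner of Cdh23, was below background on all (50.2 ± 32.6).

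The clustered beta protocadherins are single-exon genes in a row on one chromosome, and a neuron usually uses only a few of them, which gives it an identity. Of 22 members, 5 were above background on all arrays, 3 on 1 or 2 arrays and 14 on none. Pcdhb19 gave 928, 1629 and 1162, Pcdhb20 gave 1029, 843 and 838, and Pcdhb22 gave 726, 1195 and 647. Pcdhb16 (416, 709 and 813) and Pcdhb17 (403, 711 and 687) were lowest in replicate 3, where they lay just above the limit. In the RefSeq order of the cluster the first 15 genes, Pcdhb1 to Pcdhb15, held 0 members above background on all arrays, and the last 7, Pcdhb16 to Pcdhb22, held all 5. Only Pcdhb18 (54.9 ± 21.0) and Pcdhb21 (313 ± 46.6) of that last stretch were below the limit on every array. The division was drawn after the values were seen and has no test, and a limit at the 99th percentile left 0 of 22 called.

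Expression in the first 15 beta genes was uneven between samples. Pcdhb3 gave 172, 860 and 1392 and was above background on 2 arrays, Pcdhb7 gave 332, 696 and 249, and Pcdhb15 gave 71.0, 170 and 1379, each of the latter on 1 array. Mean signals of the 12 genes of this stretch above background on no array ran from 6.57 (Pcdhb13) to 167 (Pcdhb12). They were Pcdhb1, Pcdhb2, Pcdhb4, Pcdhb5, Pcdhb6, Pcdhb8, Pcdhb9, Pcdhb10, Pcdhb11, Pcdhb12, Pcdhb13 and Pcdhb14. Beta protocadherins are close in sequence, so hybridisation of one gene's RNA to another's probe set is possible, and the values of single beta genes are uncertain for that reason. The signal of Pcdhb15 comes from a probe set ending in _s_at, a suffix for probe sets that may match several transcripts, and its other probe set was below background (mean signal 33.9).

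**Figure D2:**
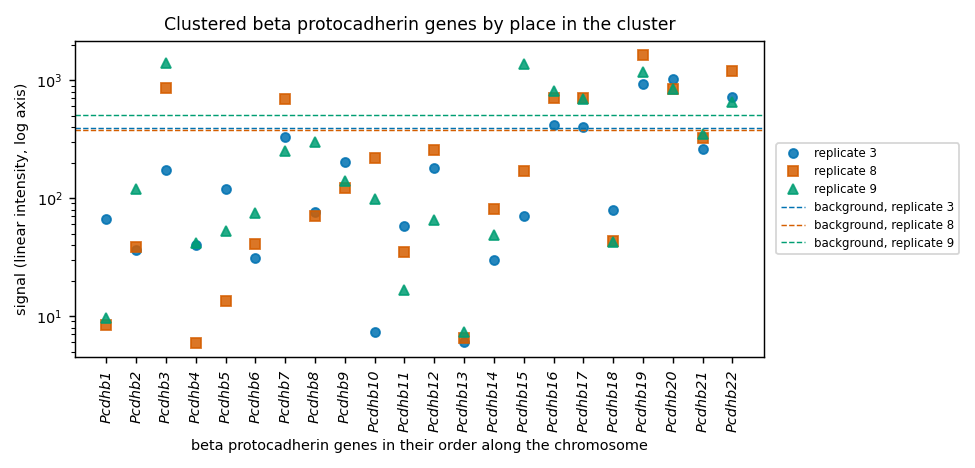
Signal (linear intensity on a log axis) of the 22 beta protocadherin genes in their order along the chromosome, in replicates 3, 8 and 9, with the background limit of each array as a dashed line. The 5 genes with all samples above the limits lie between Pcdhb16 and Pcdhb22, and Pcdhb3, Pcdhb7 and Pcdhb15 cross a limit in some samples only.

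Fat1, a giant cadherin that acts in epithelial junctions and in the kidney's filtration barrier, gave 18692, 22290 and 25060, and Fat4, the receptor of a pathway that restrains growth and orients cells in kidney and other organs, gave 5440, 9907 and 7376 and was above background with both probe sets. Both were well above the limit in every sample. Dchs1, the ligand of Fat4, was below background on every array at 77.6, 254 and 126. That value rests on 1 probe set. Fat3, which shapes neurons and their processes, had the second largest range of all 61 members, with 205, 1170 and 4667, a range of 4.5 on the log2 scale. Fat2 was below background (139 ± 122). Among the Celsr genes, which encode the cadherins of planar cell polarity, Celsr2 gave 736, 625 and 750, Celsr1 gave 484, 493 and 465, and Celsr3 gave 105, 407 and 355. Celsr1 varied little, with a range of 0.08, and missed the call by lying below the limit in replicate 9, without which 2 of 3 Celsr genes met it.

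The values nearest the limit were those of Pcdhb17, Pcdhb16 and Cdh13, whose lowest array exceeded it by 0.03, 0.07 and 0.12 on the log2 scale, and of Pcdh7, Celsr1 and Pcdh17, whose lowest array stood at -0.09, -0.11 and -0.14 relative to it.

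Spread between samples was described for the 18 members above background. Their median SD was 0.42 on the log2 scale, against 0.28 over the 9759 named genes above background. A range of at least 1 (a doubling) was seen in 4 of 18 (22.2%), against 14.2% of all named genes above background. They were Cdh16 (range 2.69), Pcdh8 (2.25), Pcdh9 (1.88) and Cdh1 (1.44). The lowest value was in replicate 3 for 10 of 18 members, against 30.5% of all named genes above background, and the highest in replicate 8 for 10 of 18, against 35.6%. After taking off each array's median deviation, the members' median deviation in replicates 3, 8 and 9 was -0.29, 0.20 and 0.08. Without replicate 3, the sign in replicate 8 turned (-0.0077).

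**Figure D3:**
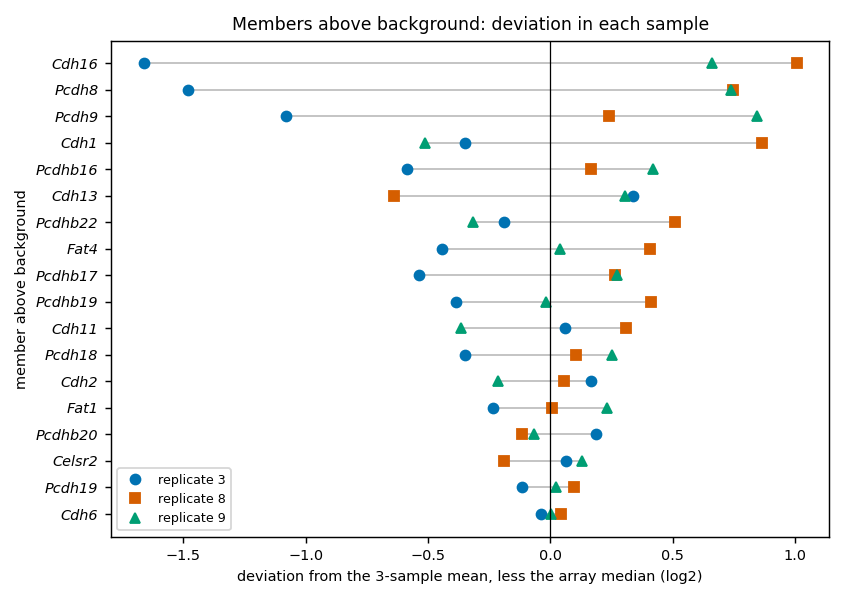
Deviation of each of the 18 members above background from its 3-sample mean (log2, less the array's median deviation), in replicates 3, 8 and 9, ordered by range, with a grey bar from the lowest to the highest sample. Cdh16, Pcdh8 and Pcdh9 are low in replicate 3, Cdh1 is high in replicate 8, and Cdh6 and Pcdh19 hardly move.

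Marker genes moved with some of these members. In replicate 8, the high sample for Cdh1, 7 of 9 epithelial markers were also highest, with summed signals of 41894, 57489 and 35028 in the order of replicates 3, 8 and 9. Epcam gave 2586, 8308 and 2414 and Cldn7 1032, 4870 and 1398, whereas Elf3 (504, 474 and 512) hardly moved. Cdh16 was high in replicate 8 as well but, unlike the epithelial list, stayed high in replicate 9. All 7 neuronal markers were lowest in replicate 3, where their summed signal was 7984, against 17637 in replicate 8 and 24512 in replicate 9. Stmn2 gave 1425, 5676 and 6761 and Nefl 2922, 5571 and 10650. With the probe sets used, Pcdh8, Pcdh9 and Pcdh17 (picked with their values in view) were low in the same sample, as were Fat3, Celsr3 and the epithelial Cdh16. The second Pcdh9 probe set above background (400, 398 and 1228) was not lowest in replicate 3. Other members known from neural cells differed less clearly. Cdh2, with the probe set used, was highest in replicate 3, but its second probe set (2196, 2478 and 2882) was lowest there. Pcdh19 hardly moved, though with the probe set used its lowest value was in replicate 3 as well. Hepatocyte markers stood opposite to the neuronal ones, 7 of 7 being highest in replicate 3 (summed signal 210228, against 113953 and 161137). The part of these mixtures in the members' differences was not tested.

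**Figure D4:**
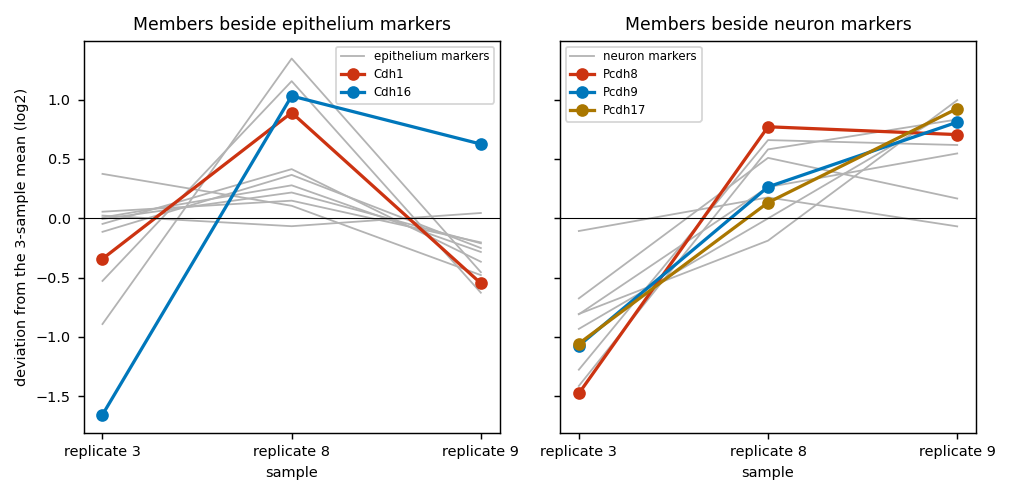
Deviation from the 3-sample mean (log2) of Cdh1 and Cdh16 beside 9 epithelial markers (left) and of Pcdh8, Pcdh9 and Pcdh17 beside 7 neuronal markers (right), with a line joining the values of one gene in replicates 3, 8 and 9, which have no order. Cdh1 peaks in replicate 8 with most epithelial markers. The 3 protocadherins, each drawn with its brightest probe set, share the low replicate 3 values of the neuronal markers. A second Pcdh9 probe set, not drawn, was not lowest in replicate 3.

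Probe sets of one gene often disagreed. More than 1 probe set was present for 11 of the members above background, and in 8 of these a probe set fell short of the call, against 76.8% of such genes over the array. Both probe sets were above background for Cdh2, Cdh11 and Fat4. The signal of Pcdh8 came from a probe set ending in _x_at, a suffix for probe sets that may cross-hybridise, and its other probe set (237, 614 and 489) exceeded the limit in replicate 8 alone, though it too was lowest in replicate 3. Pcdh18 had a second probe set at 394, 814 and 728, just below the limit in replicate 3, and another that was dim on every array.

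**Figure D5:**
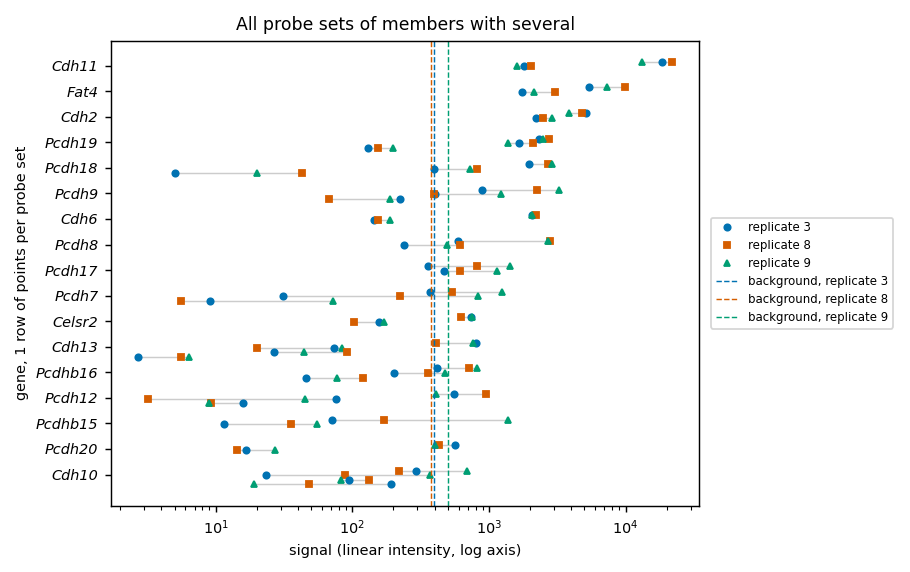
Signal (linear intensity on a log axis) of all 44 probe sets of the 17 members that have several and exceed background on at least 1 array, with 1 row of points per probe set, a grey bar from the lowest to the highest sample and dashed lines for the background limits. Cdh11, Fat4 and Cdh2 lie to the right of the limits with every probe set, whereas Cdh6, Cdh13, Celsr2 and Pcdh20 have others far to the left.

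Genes that work with cadherins were counted from 8 lists. Together 54 of 70 measured genes (77.1%) were above background on all arrays, beside 53.8% of all named genes. In the catenin complex, which ties classical cadherins to actin, 9 of 12 were: beta-catenin (Ctnnb1, 49402 ± 8255), alpha-catenin (Ctnna1, 39876 ± 4373), vinculin (Vcl, 18258 ± 2600) and Pkp4 (16763 ± 2169) were among them. The heart alpha-catenin Ctnna3 was below background on every array (117 ± 140). The neural alpha-catenin Ctnna2 (371 ± 131) and plakoglobin (Jup, 425 ± 37.6) exceeded the limit in replicate 8 alone. Desmosomal cadherins were above background for Dsg2 (3347 ± 657) and Dsc2 (1664 ± 72.6), the pair found in simple epithelia, and not for Dsc1, Dsc3 and Dsg1a. When probe sets were averaged instead of taking the brightest, 0 of these 5 were called.

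Factors known to repress Cdh1 were mostly above background, 7 of 9: Tcf4 (16780 ± 1265), Snai2 (15648 ± 3321), Zeb1 (14746 ± 3485) and Tcf3 (6096 ± 877) were among them, whereas Snai1 (130 ± 50) and Snai3 (290 ± 173) were below it. In the shedding and cleavage list 4 of 7 were above background, including the cadherin sheddase Adam10 (14726 ± 3227). Nicastrin (Ncstn) was below background on every array. Psen2 (287, 290 and 723) exceeded the limit in replicate 9 alone, and Mmp14 (389, 713 and 2494) fell below it in replicate 3 alone.

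The planar cell polarity core had 10 of 12 genes above background beside Celsr2, with Dvl1 (13051 ± 1714), Prickle1 (11060 ± 863), Prickle2 (3983 ± 655) and Fzd3 (3414 ± 1194). The exceptions were Dvl3 (19.0 ± 3.46), below the limit on every array, and Ptk7 (367 ± 75.6), below it in replicate 9 alone. When probe sets were averaged, 4 of 12 were called. Partners of Fat and Dachsous were above background for 6 of 8, including Mpdz (13122 ± 2991), Amotl1 (7719 ± 2128), Vash2 (5427 ± 1118) and Wwc1 (3776 ± 169). Fjx1, the Golgi kinase that tunes the binding of Fat4 to Dchs1, was below background on every array (325 ± 113), as was Lix1 (28.6 ± 16).

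All 9 regulators of the protocadherin clusters were above background, among them the insulator protein gene Ctcf (14241 ± 2441), Wapl (11907 ± 1061), Smc1a (8311 ± 308) and Nipbl (8058 ± 719), beside the 5 of 22 beta genes above it. The WAVE complex, an actin regulator that several delta-2 protocadherins bind, had 7 of 8 genes above background, with Brk1 (27477 ± 3926), Nckap1 (18779 ± 1597), Wasf2 (15416 ± 2668) and Wasf1 (14607 ± 1090), and Wasf3 (88.4 ± 49.8) as the exception.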

How the data were processed

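The deposited files hold linear intensities (1 value for each probe set of an array), and the submitters' processing notes name GCOS without version or settings. The deposited values of all 3 arrays share a 2% trimmed mean of 1500. How background was treated, and any detection call, is not given in the sources used here. Of 45101 probe sets, 34958 had 1 gene symbol in the platform annotation, 932 had several and 9211 are not named here. Symbols were compared by Entrez ID with GRCm38.p6, which changed 0. Where a gene had several probe sets, the one with the highest mean log2(signal + 1) stood for it. Python 3.11.15 with pandas 2.3.3 was used. Levels, counts and spreads of the 1 group are given, with no test. Members, gene lists, classes and alternatives were chosen with earlier results of these data known. The text names every member, and from partner and marker lists chiefly the brightest genes above background and those not above it. Cdh12, Cdh24 and Dchs2 were not analysed here. With 1 group of 3 arrays, precision is limited by their number.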

Additional observations from a re-analysis of the deposited data

How the results depend on the processing

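Across the 11 settings tried for calls, 7 of the 18 members above background kept their call (Cdh1, Cdh2, Cdh6, Cdh11, Fat1, Fat4 and Pcdh19), and 11 lost it in at least 1. Of the other 43 members, 9 gained a call in at least 1 setting. Calls kept, lost or gained were not counted over all named genes, so these counts cannot be set against the array as a whole. With the 99th percentile as limit, 8 members (and 42.8% of all named genes, against 53.8%) were above background, with 0 divergent, delta-1, beta and Celsr members, 1 member with a range of at least 1, and a median SD of 0.26. With the 90th percentile (25 members and 60.3% of all named genes), 2 delta-1, 2 other non-clustered and 2 Celsr members were above it and 7 had such a range, and the same 4 numbers (2, 2, 2 and 7) came from a reference list without cerebellum or without exocrine pancreas genes, both chosen after seeing the data (24 and 23 members, with 58.0% and 57.9% of all named genes). Calls on at least 2 arrays (25 members and 58.5% of all named genes) gave 2, 2 and 2 for these classes. The mean of all probe sets (15 members and 39.8% of all named genes) gave 1 divergent and 0 Celsr members, 0 desmosomal cadherins, 4 planar cell polarity genes and a median deviation in replicate 9 of -0.018. Leaving out _x_at and _s_at probe sets, which also shifts the limits, gave 15 members and 51.4% of all named genes, with 3 beta members. Without the filter on background, 32 of 61 members had a range of at least 1. That count takes in members below the limits, and the share over all named genes without the filter was not computed. Leaving out each replicate gave 19 to 22 members above background (54.5% to 56.7% of all named genes), 1 to 2 delta-1 members (2 without replicate 3), 0 to 2 other non-clustered members and 1 to 2 Celsr members (2 of each without replicate 9), and a median deviation in replicate 8 from -0.0077 to 0.23. Quantile normalization, the larger pseudocounts and no centring turned no sign and left each count they bear on within 1.5 times its value. Where no construction is named, the cause was not tested. The alternative with another reference list was not run, since no such list was at hand. No paired analysis was possible because the samples form 1 group. Signals near the limits cannot be told from background with 3 arrays.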

Other observations

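Superfamily genes outside the numbered families gave the following signals in replicates 3, 8 and 9, with no part in the counts above. Pcdh11x, a delta-1 protocadherin on the X chromosome, gave 3.89, 852 and 3431, low in replicate 3 like Fat3 and the brightest Pcdh9 probe set. Cdhr4, a cadherin-related gene, was above background on every array at 776, 907 and 1277. Cdhr2, known from the intestinal brush border, gave 804, 185 and 394, and Cdhr1, Cdhr3, Cdhr5 and Pcdhgc4 were below background on every array. The endothelial cadherin Cdh5, left out by the rule, gave 2930, 2358 and 1538. Alpha protocadherins were measured only by 6 probe sets that each name 9 or 14 genes of the cluster, and 0 of them were above background on all arrays. One, at 178, 521 and 633, was above it on 2 arrays and the other 5 on none.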
